A study of Arabidopsis thaliana with 2 samples.

Results

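The WRKY genes of Arabidopsis thaliana encode a large plant family of transcription factors. They were taken as the protein-coding genes of the annotation whose symbol starts with WRKY or whose product name contains WRKY, and 73 of 27444 protein-coding genes on chromosomes 1 to 5 met this rule. The symbol gave 67 of them and the product name alone gave 6, namely TTG2, AT1G64140, AT3G32090, AT3G56390, AT4G31805 and AT5G46310. MNase hypersensitivity sequencing (MH-seq) recovers the small DNA fragments that micrococcal nuclease (MNase) releases from lightly digested chromatin, and regions where these fragments pile up are called MNase hypersensitive sites (MHSs). Both libraries, replicate 1 and replicate 2, were made from 2-week-old seedlings of the wild-type accession Col-0 and form 1 group. Chromatin was fixed in 1% formaldehyde and fragments below 100 bp were retained. Whole seedlings were used, so all cell types were pooled, and the labels do not say whether the libraries came from separate plantings. With 1 group and 2 libraries, no test between conditions could be made, and the difference between replicates was the only measure of error.

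WRKY proteins share a DNA-binding domain that holds a conserved heptapeptide, which gave the family its name, followed by a zinc finger. The domain recognises the W-box, a short element with a TTGAC core, which is found in promoters of many defence genes and of WRKY genes themselves, so that members of the family regulate each other. Many members are induced by pathogens, salicylic acid or wounding, others act in leaf senescence, phosphate supply, pollen, seed or trichome development, and several are phosphorylated by or act downstream of mitogen-activated protein kinases.

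The MHSs described here lay, by their midpoint, between 3 kb upstream of the transcription start site (TSS) and 1 kb past the transcription termination site (TTS) of a WRKY gene. There were 444 such MHSs of 70046 in replicate 1 and 302 of 49934 in replicate 2. An MHS could lie in the windows of neighbouring genes, and a WRKY gene had the nearest protein-coding TSS for 69.1% of these MHSs in replicate 1 and 70.2% in replicate 2. An MHS was said to overlap the other replicate when at least 1 bp was common to both.

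The sequences of 7 MHSs are shown because each held at least 3 W-boxes in the bases that were hypersensitive in both replicates, and because they come from members that are close relatives. They are given on the strand of the gene, 5′ to 3′, in TAIR10 coordinates, with each W-box in capitals (TTGACC or TTGACT, or these letters on the opposite strand as GGTCAA or AGTCAA). The first 3 lie upstream of WRKY18, WRKY40 and WRKY60, related genes that are induced by pathogens and act together in basal defence and abscisic acid responses.
WRKY18, chr4:15381990-15382289, plus strand, 787 to 488 bp upstream of the TSS: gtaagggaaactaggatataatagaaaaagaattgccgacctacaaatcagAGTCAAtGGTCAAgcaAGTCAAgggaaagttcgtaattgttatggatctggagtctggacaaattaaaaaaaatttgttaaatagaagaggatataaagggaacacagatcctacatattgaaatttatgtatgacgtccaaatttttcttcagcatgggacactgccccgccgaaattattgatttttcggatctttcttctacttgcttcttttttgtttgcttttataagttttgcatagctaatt
WRKY40, chr1:30380469-30380768, plus strand, 3092 to 2793 bp upstream of the TSS: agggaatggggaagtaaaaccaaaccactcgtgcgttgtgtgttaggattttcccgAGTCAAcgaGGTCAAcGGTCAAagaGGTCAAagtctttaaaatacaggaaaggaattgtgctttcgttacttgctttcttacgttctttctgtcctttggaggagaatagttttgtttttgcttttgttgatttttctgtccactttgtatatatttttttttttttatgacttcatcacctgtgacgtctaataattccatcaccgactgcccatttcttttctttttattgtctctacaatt
WRKY60, chr2:10628951-10629250, plus strand, 711 to 412 bp upstream of the TSS: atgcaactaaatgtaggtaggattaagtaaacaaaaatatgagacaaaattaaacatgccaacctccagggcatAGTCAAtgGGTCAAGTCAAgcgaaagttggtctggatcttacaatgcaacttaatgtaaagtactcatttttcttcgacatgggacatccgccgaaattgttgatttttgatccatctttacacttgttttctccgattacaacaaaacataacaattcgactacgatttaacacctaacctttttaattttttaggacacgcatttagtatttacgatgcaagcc

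In these 3 stretches the W-boxes were crowded together. WRKY18 had 3 W-boxes within 22 bp, WRKY40 had 4 within 31 bp and WRKY60 had 3 within 19 bp, the last pair of which share bases. Those of WRKY40 lay just beyond 3 kb upstream of the TSS. They were counted because the midpoints of their MHSs were 2970 bp upstream in replicate 1 and 2923 bp upstream in replicate 2. The WRKY18 and WRKY60 stretches could be aligned over 109 columns with 81 identities (74.3%), and no W-box lay inside the aligned part of either. The MHSs that held them were 472 bp and 467 bp long at WRKY18, 477 bp and 460 bp at WRKY40, and 722 bp and 436 bp at WRKY60, in replicate 1 and replicate 2.

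The next pair lies upstream of WRKY8, a gene of salt stress and defence responses, and of WRKY28, which acts on salicylic acid synthesis.
WRKY8, chr5:18804547-18804846, minus strand, 790 to 491 bp upstream of the TSS: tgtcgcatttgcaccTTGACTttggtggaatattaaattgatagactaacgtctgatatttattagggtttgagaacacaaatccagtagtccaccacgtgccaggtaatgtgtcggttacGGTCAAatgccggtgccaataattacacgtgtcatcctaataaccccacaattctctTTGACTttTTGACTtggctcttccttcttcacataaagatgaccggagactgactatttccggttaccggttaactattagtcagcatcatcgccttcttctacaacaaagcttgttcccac
WRKY28, chr4:10060151-10060450, plus strand, 1063 to 764 bp upstream of the TSS: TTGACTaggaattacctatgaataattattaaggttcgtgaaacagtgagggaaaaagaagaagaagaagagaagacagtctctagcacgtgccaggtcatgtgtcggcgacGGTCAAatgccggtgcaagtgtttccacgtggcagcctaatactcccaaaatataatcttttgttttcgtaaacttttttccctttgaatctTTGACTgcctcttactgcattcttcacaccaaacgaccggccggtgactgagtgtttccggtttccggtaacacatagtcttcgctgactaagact

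The WRKY8 stretch held 4 W-boxes and the WRKY28 stretch held 3. They could be aligned over 200 columns with 139 identities (69.5%), and the longest identical run was 18 bp and contained a W-box, the only one of 3 and 2 in the aligned parts that occupied the same columns. In the WRKY8 stretch, 101 bases are also annotated as a small nuclear RNA gene.

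The last pair are introns of WRKY11 and WRKY17, calmodulin-binding relatives that restrain basal resistance to bacteria.
WRKY11, chr4:15290487-15290786, minus strand, intron 1, 1148 to 1447 bp downstream of the TSS: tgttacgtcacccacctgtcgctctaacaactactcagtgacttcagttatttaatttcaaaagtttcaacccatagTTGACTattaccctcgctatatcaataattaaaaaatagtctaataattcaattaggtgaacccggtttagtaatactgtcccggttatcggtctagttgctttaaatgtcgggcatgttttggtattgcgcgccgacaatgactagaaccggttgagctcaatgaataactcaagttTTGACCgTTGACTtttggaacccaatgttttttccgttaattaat
WRKY17, chr2:10438086-10438335, minus strand, intron 1, 1134 to 1383 bp downstream of the TSS: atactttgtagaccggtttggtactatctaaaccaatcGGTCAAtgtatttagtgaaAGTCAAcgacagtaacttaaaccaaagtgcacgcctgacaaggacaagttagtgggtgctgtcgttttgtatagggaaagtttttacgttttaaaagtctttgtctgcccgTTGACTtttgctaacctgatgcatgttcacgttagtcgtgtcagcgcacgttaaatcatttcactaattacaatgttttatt

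Each intronic stretch held 3 W-boxes. The whole introns, 329 bp and 491 bp long, could be aligned only over 40 columns with 31 identities (77.5%), and 1 W-box of each fell in the same columns. These 3 pairings were chosen after the sequences were seen. Stretches upstream of WRKY6 and of WRKY17 also held 3 W-boxes in bases common to both replicates, and MHSs with at least 3 W-boxes in both replicates lay upstream of WRKY2, in the 5′ UTR of WRKY23 and past the 3′ end of WRKY11, among others. They are not printed.

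MHSs were found at nearly every WRKY gene. In replicate 1, 72 of 73 WRKY genes had at least 1 MHS in the window (98.6%, exact 95% binomial interval 92.6 to 100.0), against 94.7% of all protein-coding genes. In replicate 2, 71 of 73 had at least 1 (97.3%, interval 90.5 to 99.7), against 90.4% of all protein-coding genes. The intervals cover counting error only, and genes that share a window are not independent. The single WRKY gene with no MHS in either replicate was AT3G32090 on chromosome 3 (13078956 to 13079921), which is assigned to the family by its product name and has no heptapeptide in its predicted protein. Of the 31-mers in its window 38.4% occur more than once in the genome, and reads with low mapping quality had been removed before MHSs were called, so whether its chromatin is closed cannot be told apart from a lack of mappable reads.

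WRKY74 was the only member with MHSs in 1 replicate and none in the other. It had 2 in replicate 1, 92 bp and 81 bp long and 171 bp and 1020 bp upstream of the TSS, and none in replicate 2, and 17.7% of the 31-mers in its window were repeated. WRKY68 had 1 MHS in each replicate, but not at the same place. That of replicate 1 was 128 bp long and 1410 bp upstream of the TSS, whereas that of replicate 2 was 84 bp long and lay 306 bp downstream of it in the 5′ UTR. The remaining 70 members had at least 1 MHS of replicate 1 that overlapped replicate 2 (95.9% of 73), against 88.8% of all protein-coding genes.

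**Figure D1:**
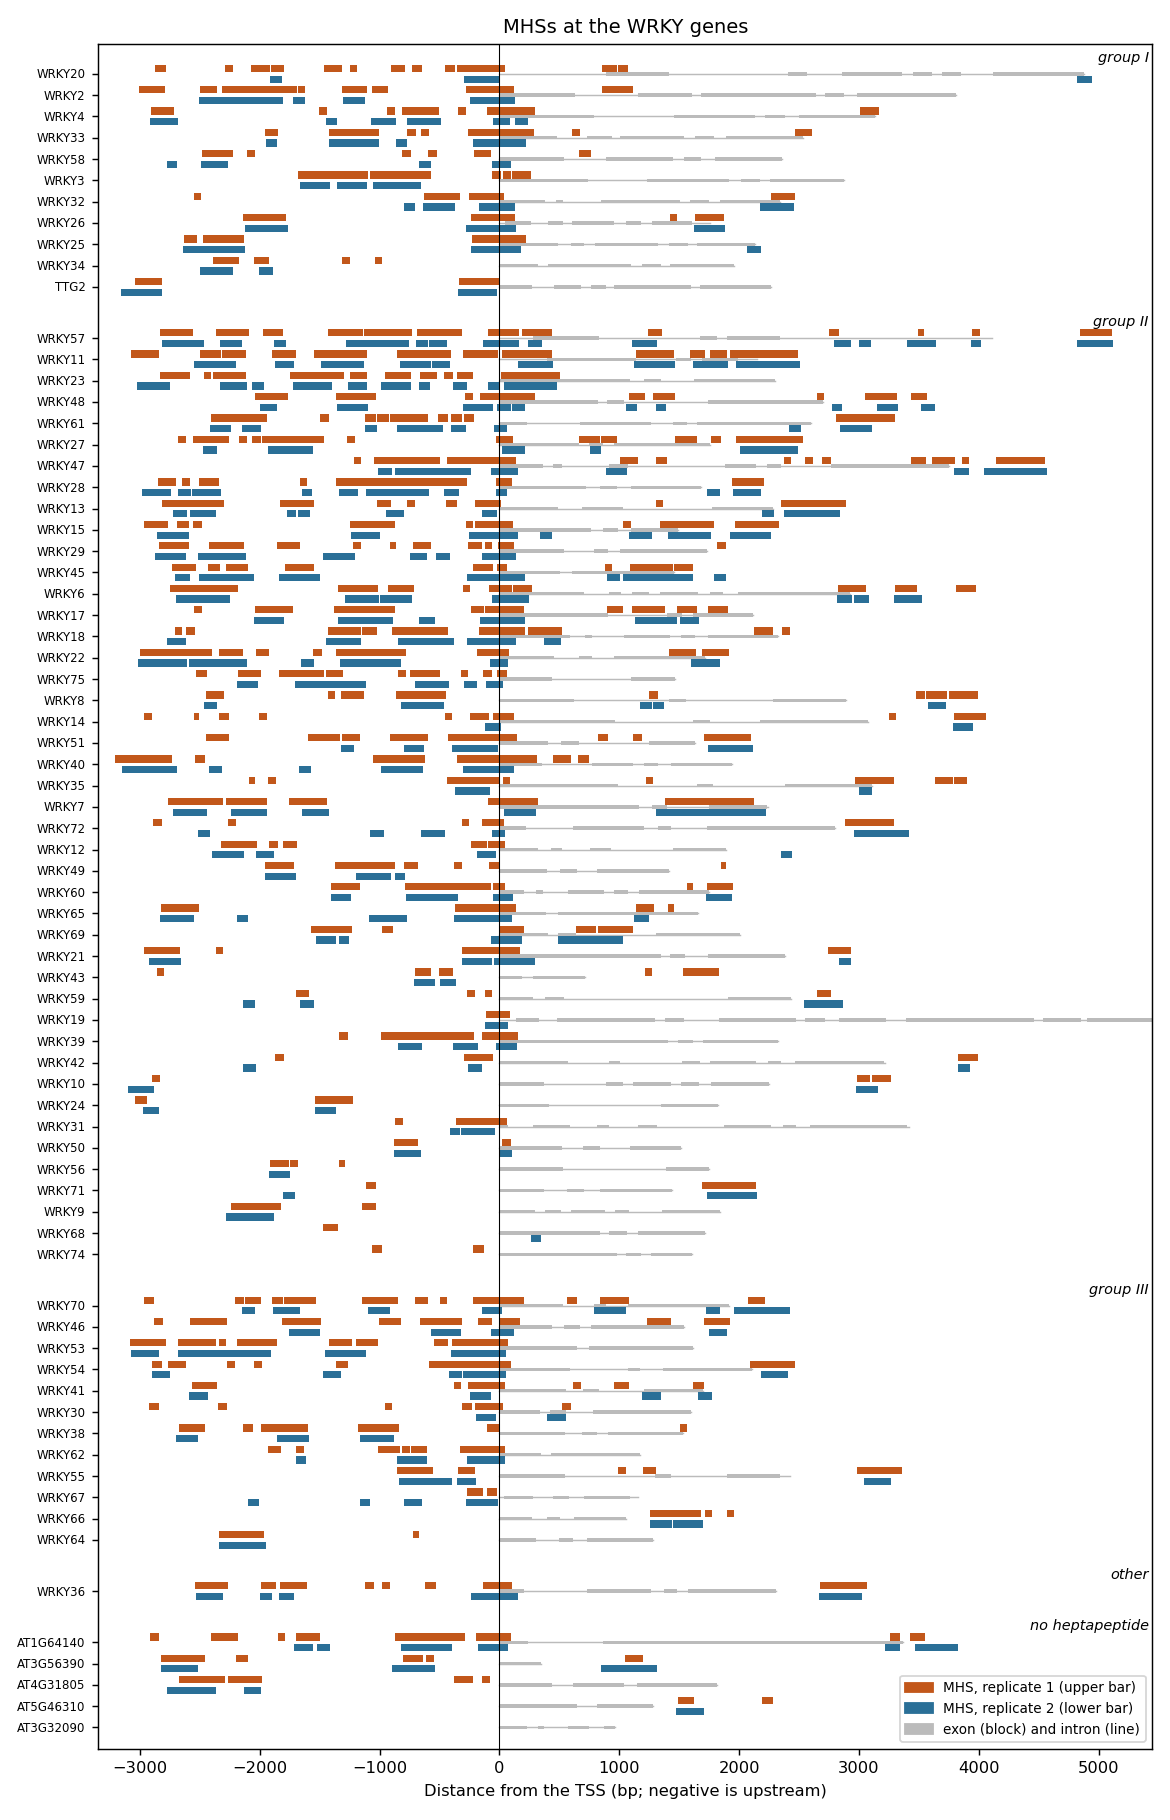
MHSs at the 73 WRKY genes against distance from the TSS in bp, with replicate 1 as the upper and replicate 2 as the lower bar of each gene, which is drawn in grey with exons as blocks. Genes are grouped by structural group and ordered by number of MHSs; WRKY19, the longest gene, runs past the right edge with 3 of its 4 MHSs of replicate 1, and AT3G32090 is the only row without a bar.

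The number of MHSs per gene was higher for WRKY genes than for protein-coding genes at large in both replicates. The median was 6 per WRKY gene (range 0 to 13) against 4 per protein-coding gene in replicate 1, and 4 per WRKY gene (range 0 to 15) against 3 in replicate 2. The mean ± SD over genes was 6.16 ± 3.27 for 73 WRKY genes against 4.27 ± 2.79 for all genes in replicate 1, and 4.19 ± 2.66 against 3.11 ± 2.29 in replicate 2. Hypersensitive sequence amounted to a median of 1100 bp per WRKY gene against 734 bp per protein-coding gene in replicate 1, and 945 bp against 595 bp in replicate 2. WRKY genes were not longer than others, with a median length of 1956 bp against 2078 bp, and per kb of window the medians were 1.053 MHSs against 0.6100 in replicate 1 and 0.6305 against 0.4222 in replicate 2.

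Upstream space moved with these counts. The distance from the TSS to the next protein-coding gene upstream had a median of 2912 bp for WRKY genes against 940 bp for all. Among genes with at least 3 kb of such space, 36 WRKY genes had a median of 8 MHSs against 5 for all genes in replicate 1, and 5 against 3 in replicate 2. Among genes with under 1 kb, 13 WRKY genes had a median of 4 against 3 in replicate 1, and 2 against 2 in replicate 2. The means of these closely spaced genes were 3.85 against 3.63 in replicate 1 and 2.69 against 2.72 in replicate 2. Thus the higher number was seen at widely spaced genes in both replicates and was small or absent at closely spaced genes. When each MHS was given only to the gene with the nearest TSS, the median was 3 per WRKY gene against 2 per protein-coding gene in replicate 1 and 3 against 1 in replicate 2.

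**Figure D2:**
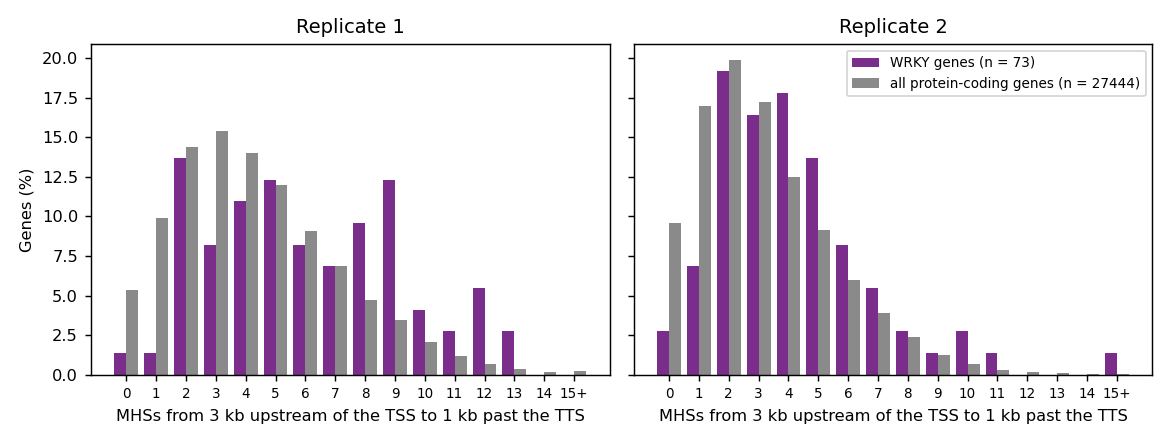
Share of genes (%) by number of MHSs from 3 kb upstream of the TSS to 1 kb past the TTS, for WRKY genes (purple, n = 73) and all protein-coding genes (grey, n = 27444) in each replicate. WRKY genes are shifted to higher numbers, with medians of 6 against 4 in replicate 1 and 4 against 3 in replicate 2.

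At least 10 MHSs were found at 11 WRKY genes in replicate 1 (15.1%), against 4.80% of all protein-coding genes, and at 4 in replicate 2 (5.48%), against 1.26%. WRKY57, which acts in drought tolerance and in jasmonate-induced leaf senescence, had the most in both, with 13 in replicate 1 and 15 in replicate 2. All 13 of the first and 14 of the second overlapped the other replicate, and they ran from 2699 bp upstream of the TSS to 4980 bp downstream of it. The WRKY57 TSS was the nearest protein-coding TSS for only 7 of them in each replicate. WRKY27, which affects symptoms of bacterial wilt, also had 13 in replicate 1 but only 5 in replicate 2, and 6 of its 13 were short, with 100 bp or less. WRKY23, an auxin-responsive gene of embryo and root development, had 10 and 11. WRKY28 had 7 in replicate 1 and 10 in replicate 2, and WRKY48, a repressor of resistance to bacteria, had 9 and 10. The replicates therefore ordered the members differently near the top. Across the 73 WRKY genes, counts in replicate 1 and replicate 2 were related with a Pearson's r of 0.706 and a Spearman's rho of 0.754, and the hypersensitive bp per gene had 0.889 and 0.875. These are descriptions across genes, which are not replicates. The counts were higher in replicate 1 at 52 members, higher in replicate 2 at 6 and equal at 15.

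MHSs at WRKY genes were of ordinary length. The median was 147.5 bp against 150 bp for MHSs at all protein-coding genes in replicate 1, and 198.5 bp against 190 bp in replicate 2. Short MHSs (100 bp or less) were as common as elsewhere, at 35.4% against 35.7% in replicate 1 and 10.9% against 12.9% in replicate 2. An MHS above 600 bp was present at 8 WRKY genes in replicate 1 (11%), against 9.53% of all protein-coding genes, and at 4 in replicate 2 (5.48%), against 5.52%, so WRKY genes were near the background here.

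The longest MHSs nevertheless marked named members. The longest of replicate 1 had 1091 bp and was centred 817 bp upstream of the WRKY28 TSS, where replicate 2 had separate MHSs of 165 bp, 528 bp and 127 bp. WRKY39, a gene of heat stress responses, had one of 777 bp centred 603 bp upstream, where replicate 2 had 2 MHSs of 206 bp and 202 bp. WRKY7, the third calmodulin-binding relative of WRKY11 and WRKY17, had one of 746 bp in replicate 1 and the longest of replicate 2, with 923 bp, both centred in its last exon 1750 bp and 1766 bp downstream of the TSS. WRKY53, a regulator of leaf senescence, had an MHS of 780 bp centred 2297 bp upstream in replicate 2, where replicate 1 had MHSs of 335 bp, 59 bp and 319 bp. WRKY2, which acts in pollen and in asymmetric division of the zygote, had 1 of 631 bp in replicate 1 and of 702 bp in replicate 2, both more than 1 kb upstream and holding 4 W-boxes in both. At WRKY28, WRKY39 and WRKY53 the long MHS of 1 replicate was thus matched by several shorter ones in the other.

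The distance of MHSs to the TSS was set beside that at all protein-coding genes. The median absolute distance was 1386 bp at WRKY genes against 1345 bp at all genes in replicate 1, and 1345 bp against 1312 bp in replicate 2. Within 200 bp upstream of the TSS, 42 WRKY genes had an MHS in replicate 1 (57.5%), against 50.0% of all protein-coding genes, and 33 in replicate 2 (45.2%), against 39.4%. Within 1 kb upstream, 61 WRKY genes had one in replicate 1 (83.6%, interval 73.0 to 91.2), against 75.1%, and 55 in replicate 2 (75.3%, interval 63.9 to 84.7), against 64.1%. Those with an MHS there that overlapped replicate 2 numbered 54 (74.0%), against 62.6%. The larger gap was farther out. Between 1 and 3 kb upstream, 65 WRKY genes had an MHS in replicate 1 (89.0%, interval 79.5 to 95.1), against 62%. In replicate 2 it was 57 (78.1%, interval 66.9 to 86.9), against 53.2%. These shares were not compared at matched upstream space, which had a median of 2912 bp at WRKY genes against 940 bp at all genes.

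The profile over distance was read in steps of 50 bp. At the TSS itself 60.3% of WRKY genes were inside an MHS in replicate 1 against 58.5% of all genes, and 53.4% against 49.6% in replicate 2. At 650 bp upstream the shares were 34.2% against 17.7% in replicate 1 and 32.9% against 14.2% in replicate 2, and at 2400 bp upstream they were 28.8% against 13.2% and 24.7% against 10.8%. At 600 bp downstream they fell to 1.37% of WRKY genes, 1 gene of 73, in both replicates, against 3.94% and 2.95% of all genes. Further downstream the WRKY curve was above that of all genes at some steps. At 1800 bp it had 15.1% against 8.53% in replicate 1 and 16.4% against 7.30% in replicate 2. At other steps it was level or below, as at 850 bp, with 5.48% against 5.61% and 4.11% against 4.12%.

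**Figure D3:**
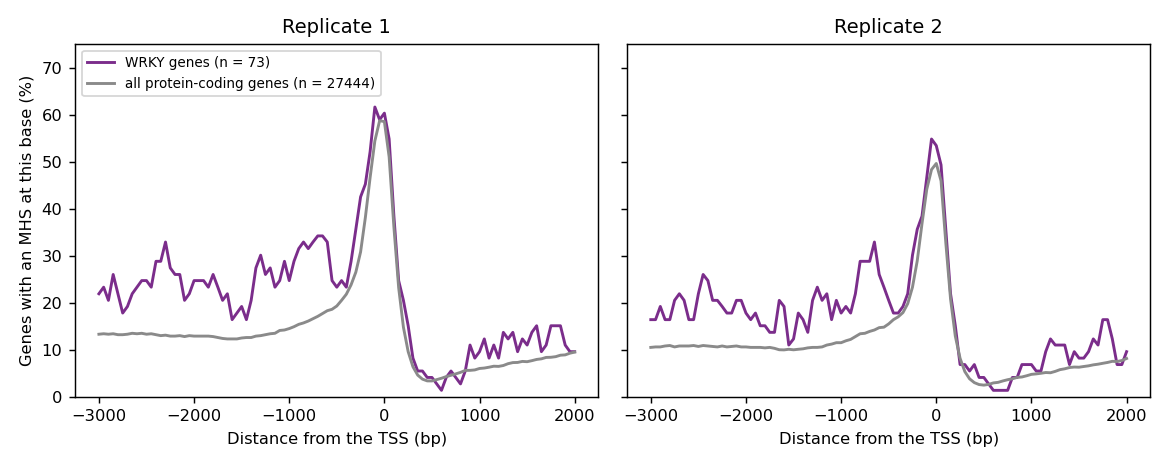
Share of genes (%) with an MHS at each 50-bp step from 3000 bp upstream to 2000 bp downstream of the TSS, for WRKY genes (purple, n = 73) and all protein-coding genes (grey, n = 27444). In replicate 1 the curves nearly meet at the TSS (60.3% against 58.5%) and at 400 bp upstream (23.3% against 21.8%). They are farther apart at 650 bp upstream (34.2% against 17.7%).

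By annotation, the place of an MHS was that of its midpoint in the transcript with the longest coding sequence. Counting an MHS once for each WRKY window it lay in, replicate 1 had 450 MHSs and replicate 2 had 306. In replicate 1, 180 lay between 1 and 3 kb upstream (40% against 30.7% at all protein-coding genes), 34 in introns (7.56% against 4.85%), 59 downstream of the gene (13.1% against 19.6%) and 4 in coding sequence (0.889% against 1.68%). In replicate 2, 119 lay between 1 and 3 kb upstream (38.9% against 30.6%), 10 in introns (3.27% against 3.04%), 41 downstream (13.4% against 19%) and 8 in coding sequence (2.61% against 3.45%). WRKY genes with an MHS in coding sequence numbered 4 in replicate 1 (5.48%), against 6.08% of all protein-coding genes, and 7 in replicate 2 (9.59%), against 9.07%.

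Several well-studied members had few MHSs, 1 of them at or near the TSS in each replicate. TTG2, required for trichome and seed coat development, had 2 MHSs in each replicate, and those 172 bp and 182 bp upstream of the TSS were 332 bp and 323 bp long. The other, 224 bp long in replicate 1 and 342 bp long in replicate 2, lay 2931 bp and 2985 bp upstream. WRKY50, which acts in salicylic acid repression of jasmonate responses, also had 2 in each replicate, at 780 bp upstream and 58 bp downstream in replicate 1 and at 769 bp and 53 bp in replicate 2. WRKY25, a gene of heat and defence responses whose TSS lies 6 bp from the next gene, had MHSs of 452 bp and 425 bp centred 7 bp and 29 bp upstream. It also had MHSs of 339 bp and 108 bp centred 2303 bp and 2575 bp upstream in replicate 1, and in replicate 2 one of 522 bp centred 2382 bp upstream and one of 114 bp in the 3′ UTR. WRKY19 encodes an unusual fusion of a resistance protein, a WRKY domain and a kinase, and had 4 MHSs in replicate 1 and 2 in replicate 2. An MHS lay at its TSS in each replicate, 194 bp and 190 bp long, and the other 3 of replicate 1 and the other 1 of replicate 2 were centred downstream of the gene, which is 8171 bp long.

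Other immune regulators had sites spread along the upstream region. WRKY70, which balances salicylic acid and jasmonate responses, had 12 MHSs in replicate 1, 9 of which overlapped replicate 2, and 7 in replicate 2, and none held a W-box. WRKY53 had 8 and 4, all of them upstream of the TSS. WRKY33, needed for camalexin synthesis and resistance to necrotrophic fungi, had 7 and 4, of which those of 544 bp and 441 bp covered the TSS and held 2 W-boxes each. WRKY22 had 8 and 6 and WRKY29, which acts with it downstream of flagellin perception, had 10 and 6. The most W-boxes in a single MHS, 5, were in one of 487 bp in replicate 2, centred 2352 bp upstream of the WRKY22 TSS, a region where replicate 1 had MHSs of 202 bp and 606 bp with 2 W-boxes each.

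Grouped by known role, differences between lists were not tested. Immune regulators, of which 25 of 27 listed genes met the rule, all had MHSs in both replicates, as 94.7% and 90.4% of all protein-coding genes had in replicate 1 and replicate 2. Their medians were 7 in replicate 1 (range 2 to 13) and 5 in replicate 2 (range 2 to 10), against 4 and 3 at all protein-coding genes. The 6 genes of senescence and nutrient supply had medians of 9 and 6, and 46 of their 51 MHSs of replicate 1 overlapped replicate 2 (90.2%), against 62.8% at all protein-coding genes. WRKY6, a senescence and phosphate gene, had 9 and 7, WRKY75, a gene of phosphate starvation, had 9 and 5, WRKY45, an activator of phosphate uptake, had 9 and 7, and WRKY42, which acts on phosphate translocation, had 3 and 3. The 8 developmental genes had medians of 4.5 and 3. WRKY10 (MINISEED3), expressed in pollen and endosperm, had 3 and 2, and none of them was centred between 2869 bp upstream of its TSS and its TTS. WRKY34, a pollen gene, had 4 and 2, the nearest of which was 1006 bp upstream in replicate 1 and 1949 bp upstream in replicate 2. WRKY71, which promotes shoot branching, had 2 and 2 with none within 1 kb upstream, whereas WRKY12 and WRKY13, regulators of stem secondary walls and flowering, had 5 and 4 and 8 and 8. WRKY2, which also acts in pollen, had 9 and 4, and its nearest upstream MHSs were 81 bp and 58 bp from the TSS. Expression was not measured, and a relation of these counts to the tissue of expression was not tested.

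Structural groups were assigned from the predicted proteins by the number of heptapeptides and the type of zinc finger. Group I, with 2 heptapeptides, had 11 genes with medians of 5 MHSs in replicate 1 and 3 in replicate 2, group II had 44 genes with 6 and 4.5, and group III had 12 genes with 6 and 3.5. In replicate 1, 33 of 63 MHSs of group I overlapped replicate 2 (52.4%), against 199 of 285 in group II (69.8%) and 48 of 75 in group III (64.0%). The share at all protein-coding genes was 62.8%, and differences between groups were not tested. WRKY20 of group I had 12 MHSs in replicate 1, of which 3 overlapped, and 3 in replicate 2. The 5 genes with no heptapeptide had medians of 4 and 2, and WRKY36, which fitted no group by this rule, had 8 and 5.

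Introns carried MHSs at more WRKY genes than at genes in general in replicate 1, whereas replicate 2 was near the background. In replicate 1, 20 WRKY genes had an intronic MHS (27.4%, interval 17.6 to 39.1), against 12.3% of all protein-coding genes. Among genes with an intron the numbers were 20 of 72 (27.8%), against 15.4%. In replicate 2 it was 7 WRKY genes (9.59%, interval 3.94 to 18.8), against 6.64%, which lies inside the interval. Total intron length was alike, with a median of 504 bp per WRKY gene against 499 bp per protein-coding gene. At 11 WRKY genes an intronic MHS of replicate 1 overlapped replicate 2 (15.1%, interval 7.77 to 25.4), against 6.45% of all protein-coding genes. This background was 1771 of 27444 genes, of which only 21943 had an intron. Among genes with an intron the backgrounds are therefore higher than 6.45% here and 6.64% in replicate 2. They were not computed, so a difference from genes with an intron was not tested for these 2 shares.

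These 11 genes were WRKY8, WRKY11, WRKY15, WRKY17, WRKY27, WRKY30, WRKY47, WRKY48, WRKY57, WRKY69 and WRKY70. The overlap was wide at some and marginal at others. In WRKY69, 2 MHSs of 165 bp and 292 bp in intron 2 in replicate 1 were covered over 165 bp and 211 bp by 1 of 546 bp in replicate 2. In WRKY70, MHSs of 251 bp and 270 bp in intron 2 had 223 bp in common. WRKY57 had 119 bp and 208 bp in intron 1 with 77 bp in common, and WRKY48 had 2 MHSs in intron 2 in each replicate with 64 bp and 86 bp in common. By contrast the MHSs of WRKY15, WRKY27 and WRKY30, genes of osmotic stress, bacterial wilt and oxidative stress responses, shared only 14 bp, 1 bp and 34 bp with the other replicate, whose MHSs were centred in coding sequence. In WRKY47 the overlapping MHS of replicate 2 was also centred in coding sequence and shared 57 bp. Of the 34 intronic MHSs of replicate 1, 15 overlapped replicate 2 (44.1%), and all 10 of replicate 2 overlapped replicate 1. The same shares for intronic MHSs of all protein-coding genes were not computed. The intronic MHSs of WRKY genes had a median length of 109 bp in replicate 1 and of 182 bp in replicate 2.

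**Figure D4:**
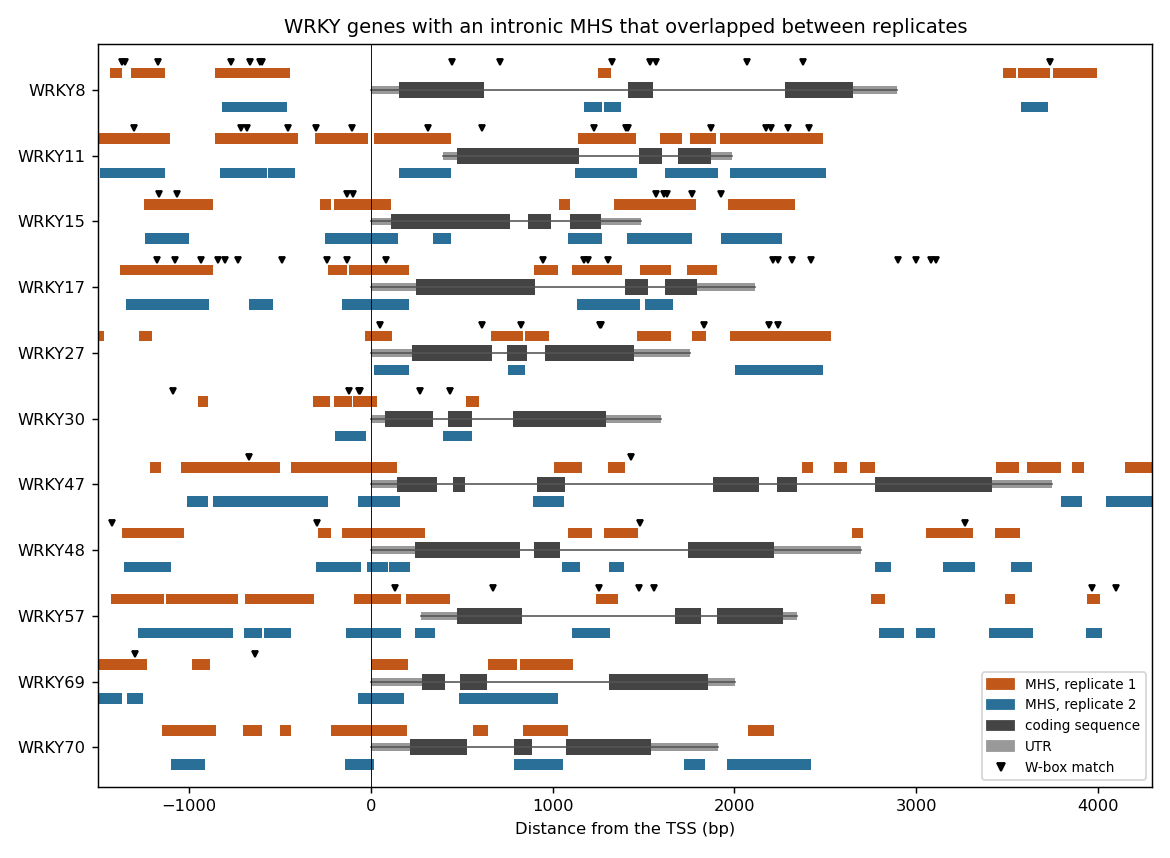
Gene models of the 11 WRKY genes with an intronic MHS of replicate 1 that overlapped replicate 2, against distance from the TSS in bp, with MHSs of replicate 1 above and of replicate 2 below each model and W-box matches as triangles. WRKY11 and WRKY17 have MHSs with 3 W-boxes in intron 1 in both replicates, and gene models start downstream of 0 where the longest coding transcript starts inside the gene.

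Many WRKY genes have an intron within the codons of the WRKY domain. An intron 14 residues after the start of the heptapeptide was present in 53 members, with a median length of 122 bp. It held an MHS of replicate 1 at 11 of them, which overlapped replicate 2 at 8, and an MHS of replicate 2 at 4. The 11 introns had a median length of 224 bp, but those of WRKY11, WRKY17, WRKY27 and WRKY15 had 87 bp, 90 bp, 96 bp and 102 bp, and the longest intron at this position, of 1364 bp in WRKY59, held none. Introns 18 to 36 residues before the heptapeptide were present at 39 members and held an MHS of replicate 1 at 8, which overlapped at 4, and of replicate 2 at 4.

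The calmodulin-binding members WRKY7, WRKY11, WRKY15, WRKY17, WRKY21, WRKY39 and WRKY74, a clade compared after the values were seen, fell on both sides. In WRKY11, 95.7% of intron 1 lay in MHSs of replicate 1 and 98.2% in those of replicate 2, and intron 2 was covered to 100% and 81.6%. In WRKY17, intron 1 was covered to 81.7% and 53.6% and intron 2 to 100% in both replicates. In WRKY7, intron 2, which is 353 bp long and has 2 W-boxes, was covered to 100% in both replicates by the long MHSs centred in the next exon, and intron 1 was not covered. In WRKY15, intron 2 was covered to 59.8% and 8.82%. Neither intron of WRKY21, WRKY39 or WRKY74 had a base in an MHS in either replicate.

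W-boxes were more frequent in MHSs at WRKY genes than in MHSs at protein-coding genes at large, while outside MHSs they were nearly as frequent. At least 1 W-box was found in 129 of 444 MHSs at WRKY genes in replicate 1 (29.1%, interval 24.9 to 33.5), against 22.4%, and in 121 of 302 in replicate 2 (40.1%, interval 34.5 to 45.8), against 28.2%. Per kb of MHS there were 2.25 W-boxes at WRKY genes against 1.46 at all genes in replicate 1, and 2.68 against 1.69 in replicate 2. In the parts of the windows outside MHSs the values were 1.15 per kb against 1.05 in replicate 1, and 1.13 against 1.04 in replicate 2. Irrespective of MHSs, the 1 kb upstream of the TSS held at least 1 W-box at 75.3% of WRKY genes against 67.3% of all, and at least 3 at 20.5% against 13.5%. Base composition was similar, with a median A/T content of 69.71% in MHSs at WRKY genes against 68.74% in replicate 1, and 65.48% against 64.81% in replicate 2.

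**Figure D5:**
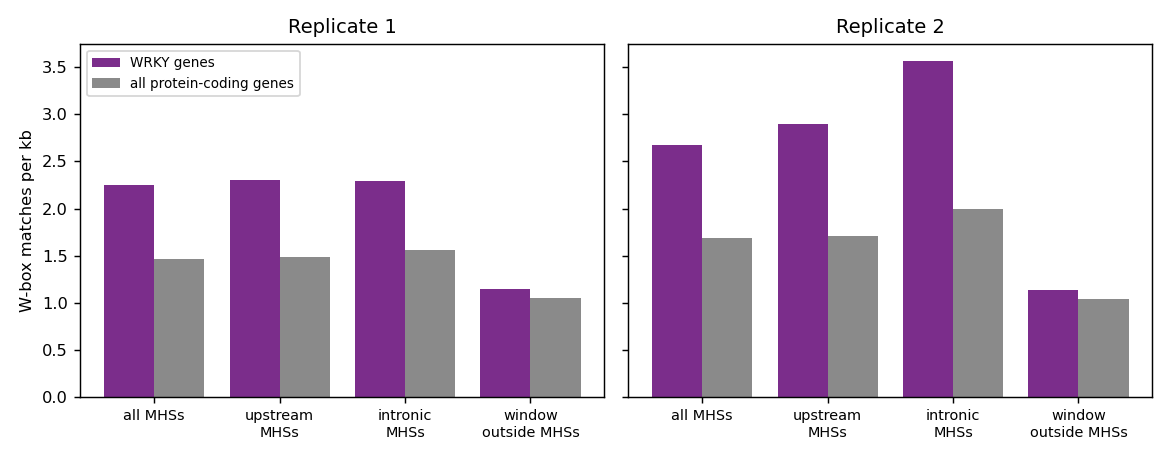
W-box matches per kb in all MHSs, in upstream MHSs, in intronic MHSs and in the windows outside MHSs, for WRKY genes (purple) and all protein-coding genes (grey) in each replicate; each bar is 1 pooled value without an error bar. Upstream MHSs had 2.30 against 1.48 per kb in replicate 1 and 2.90 against 1.71 in replicate 2, and outside MHSs the bars are close; the intronic bars of WRKY genes rest on 34 MHSs in replicate 1 and 10 in replicate 2.

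Upstream MHSs with at least 3 W-boxes numbered 12 of 305 at WRKY genes in replicate 1 (3.93%, interval 2.05 to 6.77), against 1.33%, and 11 of 204 in replicate 2 (5.39%, interval 2.72 to 9.44), against 1.80%. Upstream MHSs at WRKY genes had a median length of 142 bp against 156 bp in replicate 1 and 227 bp against 195 bp in replicate 2. Of all MHSs at WRKY genes, 11.7% were above 400 bp in replicate 1, against 10.3%, and 12.9% in replicate 2, against 9.63%. W-box shares were not compared at matched length, so a part of length in them was not tested. Among intronic MHSs, 2 of 34 in replicate 1 held at least 3 (5.88%, interval 0.720 to 19.7), against 1.17%, which lies inside the interval. In replicate 2 it was 2 of 10 (20.0%, interval 2.52 to 55.6), against 2.20%. In each replicate these were the introns of the relatives WRKY11 and WRKY17. At least 1 W-box was held by 5 of 34 in replicate 1 (14.7%, interval 4.95 to 31.1), against 17.9%. In replicate 2 it was 4 of 10 (interval 12.2 to 73.8), against 29.9%. Both backgrounds for at least 1 W-box lie inside the intervals. An MHS with at least 3 W-boxes anywhere in the window was found at 15 WRKY genes in replicate 1 (20.5%), against 5.29% of all protein-coding genes, and at 14 in replicate 2 (19.2%), against 5.23%. It was found in at least 1 replicate at 17 members and in each of them at 12 (16.4%), against 3.80% of all protein-coding genes. These 12 were WRKY2, WRKY6, WRKY7, WRKY8, WRKY11, WRKY15, WRKY17, WRKY18, WRKY23, WRKY28, WRKY40 and WRKY60. A match is a sequence feature, and binding was not measured.

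WRKY11 had the most W-boxes in its MHSs, 14 in replicate 1 and 13 in replicate 2, spread over several MHSs. Among them, intron 1 held 3 and an MHS of 571 bp and 531 bp centred past the 3′ end of the gene held 4 in each replicate. WRKY17 had 9 in both replicates and WRKY15 had 8 and 11. In WRKY40 the cluster near 3 kb upstream was accompanied by MHSs of 430 bp and 352 bp with 2 W-boxes each, centred 839 bp and 816 bp upstream, and by MHSs of 663 bp and 430 bp across the TSS that held none. In WRKY18 the corresponding sites were the cluster itself at 663 bp and 614 bp upstream and MHSs of 389 bp and 414 bp at the TSS with none.

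The replicates agreed on WRKY sites about as often as on sites elsewhere. In replicate 1, 293 of 444 MHSs at WRKY genes overlapped replicate 2 (66.0%, interval 61.4 to 70.4), against 62.8%, and in replicate 2, 267 of 302 overlapped replicate 1 (88.4%, interval 84.3 to 91.8), against 87.3%. Length moved with this share. In replicate 1, 29.9% of short MHSs overlapped at WRKY genes against 26.7% at all genes, and of longer ones 85.7% against 82.8%. In replicate 2 the shares were 57.6% against 60% and 92.2% against 91.3%. Upstream within 200 bp of the TSS, 36 of 44 MHSs of replicate 1 at WRKY genes overlapped (81.8%). From there to 1 kb it was 49 of 81 (60.5%), and from 1 to 3 kb 118 of 180 (65.6%). These shares by place were not computed for all protein-coding genes.

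Some WRKY genes are neighbours and share sites. WRKY18 and AT4G31805, which lie 179 bp apart, shared 4 MHSs of replicate 1 and 2 of replicate 2. WRKY54 and WRKY55 shared 1 in each replicate, as did WRKY70 and AT3G56390. WRKY64 and WRKY67, 3857 bp apart, shared none.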

How the data were processed

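MH-seq libraries of 2-week-old Col-0 seedlings were prepared and processed by the authors, who used Cutadapt for trimming and Bowtie2 for alignment to TAIR10, kept full-length alignments with mapping quality above 10 and called MHSs in each library with Jazz. Versions and the cut-off of the calls are not given in the sources used here. The deposited files list the start and end position of each MHS and no read count, signal or score, so the depth behind an MHS is unknown from the files, and reads were not analysed here. The label of 1 library carries no replicate number, and it is called replicate 1. For the library called replicate 2, the authors reported a higher background and a larger share of chloroplast reads than for replicate 1.

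Positions were read as 0-based starts and are printed 1-based. Genes, transcripts and sequences came from TAIR10.1 with its RefSeq annotation, whose chromosomes are those of TAIR10. The TSS and TTS were the ends of the gene, an MHS was assigned by its midpoint, and the W-box was searched on both strands as TTGACC or TTGACT. Structural groups were set from translated coding sequences, by the heptapeptide and the zinc finger. Named members were, per replicate, the 3 with most MHSs and the 3 longest MHSs, those with MHSs in neither or in 1 replicate, those with an intronic MHS overlapping between replicates, and widely studied members; further members were named after their values were seen where a group or count is spelled out. Sequences were those of widely studied members with at least 3 W-boxes in an upstream or intronic stretch of up to 300 bp common to both replicates. The members, lists and W-box comparison were chosen with earlier results of these data known. Intervals are exact (Clopper-Pearson) binomial intervals at 95%. Scripts ran under Python 3.11.15 with numpy 2.4.6, scipy 1.17.1 and Biopython 1.88 (local alignments), with figures in matplotlib 3.10.9, and their functions passed 22 of 22 tests on simulated data.

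The alternatives tried were replicate 2 alone, MHSs of at least 100 bp, overlap in place of the midpoint, a window from 1 kb upstream, the nearest TSS only, MHSs overlapping the other replicate, at least 50% overlap, introns of every transcript, the start of the longest coding transcript and the TTGAC core.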

Additional observations from a re-analysis of the deposited data

How the results depend on the processing

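For 8 results, 48 alternative settings were computed, of which 29 stayed close to the value of replicate 1 and 19 moved by at least the spread between the replicates (1 SD) or, for counts of genes, by over 1.5 times. For results other than counts of genes, replicate 2 alone is bound to count as moved, because the spread comes from the same replicates. WRKY genes with an MHS in the window (67 to 72) and within 1 kb upstream (54 to 64) stayed within 1.5 times under every setting tried for them. The median of 6 MHSs per WRKY gene became 4 with MHSs of at least 100 bp or a window from 1 kb upstream, and 3 with the nearest TSS only or with MHSs overlapping the other replicate. The median length of 147.5 bp became 224 bp with MHSs of at least 100 bp and 215 bp with overlapping MHSs. The median distance of 1386 bp became 1465 bp when any overlap assigned an MHS and 950 bp with the nearest TSS only. WRKY genes with an intronic MHS fell to 13 with MHSs of at least 100 bp, against 20. The overlapping share of 66.0% became 85.7% with MHSs of at least 100 bp and 41.7% with reciprocal overlap of at least 50%. The share with a W-box, 29.1%, became 39.4% with MHSs of at least 100 bp and 39.0% with the TTGAC core. Without replicate 1, that is from replicate 2 alone, the values were 71 genes with an MHS, a median of 4 MHSs, 55 genes with 1 within 1 kb upstream, a length of 198.5 bp, a distance of 1345 bp, 7 genes with an intronic MHS, an overlapping share of 88.4% and a W-box share of 40.1%. The count of genes with an intronic MHS thus depended on the replicate by more than 1.5 times. No paired analysis was possible because both libraries belong to 1 group. With 2 libraries and no read counts, the precision of a single MHS could not be given, and short MHSs, most of which did not overlap in replicate 1, limit the counts per gene.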

Other observations

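MHSs in the windows of genes that act with the family were counted in the same way. All 19 listed genes of the pathways around WRKY factors (kinases, receptors, interacting proteins and salicylic acid or camalexin genes) had an MHS in both replicates, as 94.7% and 90.4% of all protein-coding genes had in replicate 1 and replicate 2. The medians were 5 in replicate 1 (range 1 to 11) and 4 in replicate 2 (range 1 to 10), against 4 and 3 at all protein-coding genes, and 75 of 101 MHSs of replicate 1 overlapped replicate 2 (74.3%), against 62.8%. ICS1, which makes isochorismate for salicylic acid, had 11 MHSs in replicate 1 and 10 in replicate 2, all overlapping, with 2 and 3 of them in introns. PR1, a marker of salicylic acid responses, had a single MHS in each replicate, 129 bp and 149 bp long, within 1 kb upstream. Of the receptors of bacterial patterns, FLS2 had 4 and 5 and EFR had 2 and 2, all overlapping. MPK3 had 10 and 5, MPK6 had 4 and 3 and MPK4 had 4 and 4. SIB1, which binds WRKY33, had 8 and 8, and MKS1, which links MPK4 to WRKY33, had 4 and 2.

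Genes whose WRKY number is only a synonym in the annotation did not meet the rule for membership. These were WRKY63 (ABO3), WRKY1 (ZAP1), WRKY16 (TTR1) and WRKY52 (RRS1), the last of which encodes a resistance protein joined to a WRKY domain. They had 5, 4, 2 and 2 MHSs in replicate 1 and 3, 2, 1 and 1 in replicate 2, and all 7 of replicate 2 overlapped replicate 1.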
